A study of Mus musculus with 2 samples.

Results

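The genes of the proteasome and of the factors that assemble it were followed in cultured mouse cardiac myofibroblasts with and without knockdown of *Vgll3*. They were chosen by name, with earlier results of these data known. The set holds every gene of the count table whose symbol starts with Psma, Psmb, Psmc, Psmd, Psme, Psmf or Psmg and a digit. Left out were the immunoproteasome subunits *Psmb8*, *Psmb9* and *Psmb10* and pseudogene symbols. This gave 47 of the 24532 genes in the table. The cells came from the infarcted hearts of young adult male C57BL/6 mice (C57BL/6J by the study's methods) 3 days after myocardial infarction (MI), and were the CD45-negative cells left after magnetic removal of CD45-positive leukocytes. They were transfected with 12.5 nM of a control siRNA (siCtrl) or of a single siRNA against *Vgll3* (si*Vgll3*), and RNA was collected 72 h later. Each condition has 1 library, so no difference below has a replicate check, and none has a p-value.

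The proteasome is the protease of the cytosol and nucleus that degrades proteins tagged with ubiquitin. Its 20S core particle is a barrel of stacked rings, in which *Psma* genes encode the outer alpha rings and *Psmb* genes the inner beta rings that hold the active sites. The 19S regulatory particle caps the barrel. Its base of *Psmc* ATPases and large *Psmd* scaffold proteins unfolds substrates, and its lid of further *Psmd* subunits removes the ubiquitin. Other caps, encoded by *Psme* genes, open the core without ubiquitin, and interferon is known to induce some of them together with the immunoproteasome subunits. Matrix-secreting fibroblasts, like all growing cells, depend on the proteasome to clear misfolded and short-lived proteins.

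The siCtrl library holds 140815237 reads assigned to genes and the si*Vgll3* library 125789276. *Vgll3* itself, the target of the knockdown, was at 202 TPM (abundance adjusted for transcript length and sequencing depth) in siCtrl against 84.0 TPM in si*Vgll3*. M is the log2 ratio of the si*Vgll3* to the siCtrl TPM, and A is log2 of their mean. Square brackets hold the 95% Clopper-Pearson interval of each read-count ratio, moved to the scale of M. They cover counting error only, and not the spread between cultures. They may be too narrow even for counting error, because sequenced reads are not independent molecules. A gene is called higher at M > 0.5 and lower at M < −0.5, in each case with A > 0. All 10 myofibroblast markers looked at were expressed in both libraries, and they differed in both directions. Of these, *Postn*, *Col1a1*, *Pdgfrb* and *Col1a2* were called lower, with M from −1.22 to −0.53, and *Thy1* and *Tagln* were called higher, at 0.72 and 0.52. The call of *Col1a2*, at −0.53, does not hold when M is centred on the median of all genes. The leukocyte markers *Ptprc*, *Adgre1*, *Itgam* and *Cd3e* had 0 reads in both libraries, which allows up to 3 reads in each. Of the 6 cardiomyocyte markers, *Myh6*, *Actc1*, *Nppa* and *Ryr2* also had 0 reads in both libraries, while *Tnnt2* was at 60.0 TPM in siCtrl against 10.4 TPM in si*Vgll3*. The 5 endothelial markers summed to 24.0 TPM in siCtrl against 19.6 TPM in si*Vgll3*. Most of this sum was *Tek*, at 19.5 TPM and 13.4 TPM, while *Cdh5* and *Pecam1*, the other 2 with A > 0, had M of 0.50 and 0.47. In such bulk libraries, fewer cells of a type and less RNA per cell cannot be told apart.

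Of the 47 proteasome genes, 45 had A > 0. Over these, the median M was 0.02, while the median over all 11754 genes with A > 0 was −0.05. Only 1 proteasome gene was called higher, *Psma8*, where 5.73% of all genes were. Only 1 was called lower, *Psme2*, where 11.4% of all genes were, and it lay at the threshold itself. The 3 immunoproteasome subunits, left out of the set, were all called lower, *Psmb10* close to the threshold. M was above 0 for 26 proteasome genes (57.8%) and for 43.0% of all genes. This split depends on the scaling, since 32 or 33 of the 45 genes had M above 0 when the read counts were scaled by library totals, by TMM factors or by DESeq2's size factors or when M was centred on all genes, and 49.1% to 50.8% of all genes did. The counting interval lay above 0 for 19 proteasome genes (32.4% of all genes) and below 0 for 14 (45.8% of all genes). Within a window of 0.25 on either side of 0, chosen after the values were seen, lay 39 of the 45 genes (86.7%), against 59.9% of all genes. The shares of all genes given here are not matched for level. In siCtrl the median level was 192 TPM over the proteasome genes and 14.0 TPM over all genes with a TPM value. Genes with few reads have more counting error in M.

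Summed over the proteasome genes, the level was 8711 TPM in siCtrl against 8883 TPM in si*Vgll3*, which is 0.872% and 0.890% of the whole library. The log2 ratio of these sums was 0.03. The subunits of the core and regulatory particles, 31 genes, made up 8033 TPM of it in siCtrl and 8218 TPM in si*Vgll3*. They lay within a narrow band of levels, from 128 TPM for *Psmd11* to 474 TPM for *Psmb1* in siCtrl, and from 120 TPM for *Psmd12* to 472 TPM for *Psmb1* in si*Vgll3*. The most abundant subunit was thus 3.69 times the least abundant in siCtrl and 3.93 times in si*Vgll3*. The ratio of the summed 19S to the summed 20S subunits was 0.817 in siCtrl and 0.804 in si*Vgll3*.

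**Figure D1:**
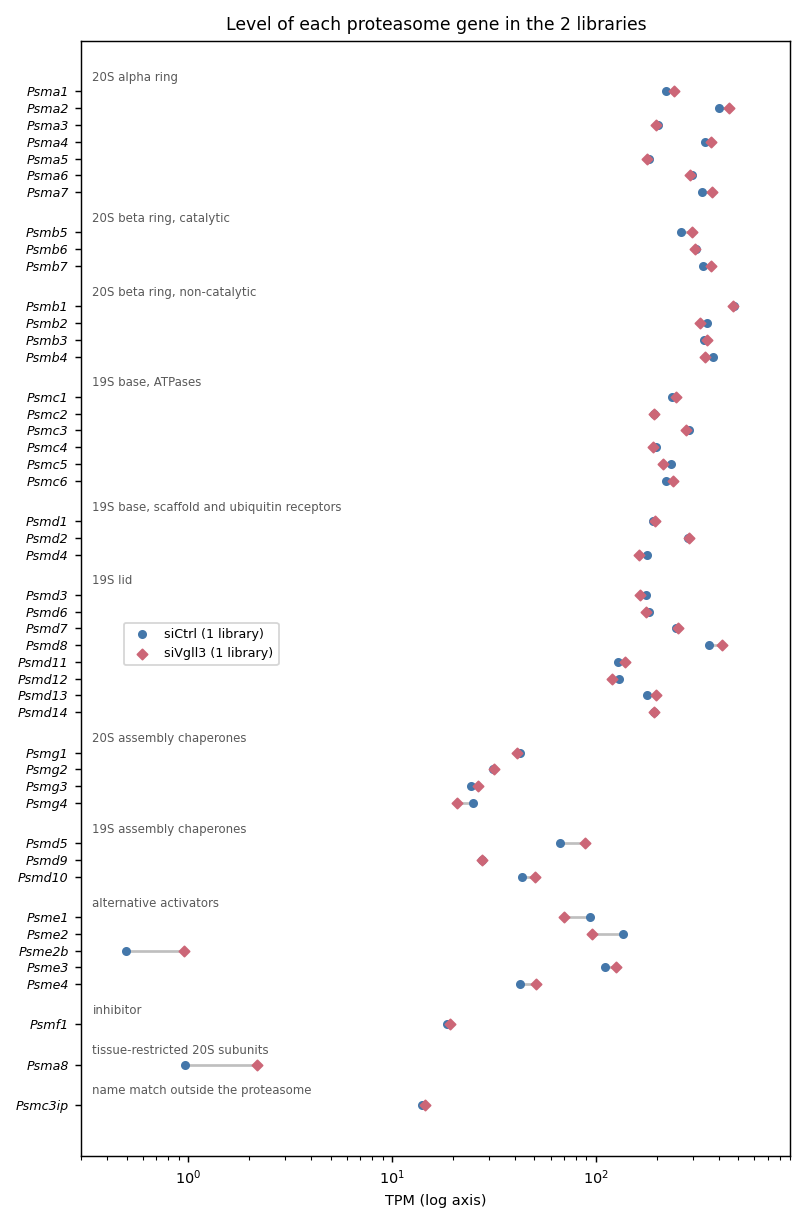
Level of each proteasome gene with a TPM value, in TPM on a log axis, grouped by role; circles are the siCtrl library and diamonds the si*Vgll3* library, joined by a line. The subunits of the 20S and 19S particles sit between 120 and 474 TPM in both libraries, the assembly chaperones between 20.9 and 88.0 TPM, and *Psma8* and *Psme2b* at 2.17 TPM or less.

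The alpha ring, the gate through which substrates enter the core, had a median M of 0.10 over its 7 genes. *Psma2* was its most abundant subunit, with 400.2 TPM in siCtrl against 452 TPM in si*Vgll3*, and had its highest M, 0.17 [0.15, 0.20]. *Psma7* followed with 331 TPM in siCtrl against 370.2 TPM in si*Vgll3*. These, together with *Psma1* at an M of 0.13 and *Psma4* at 0.10, were the 4 alpha subunits whose counting interval lay above 0. *Psma6* had the lowest M of the ring, −0.03 [−0.06, −0.00295], at 296 TPM and 289 TPM. *Psma3* and *Psma5* also lay just below 0, at 97.9% and 98.5% of their siCtrl level. All 3 of these, and *Psmb1*, *Psmb6* and *Psmc2* among the subunits below, lay above 0 under each of the 4 rescalings, so their sign rests on the scaling. No alpha subunit differed by more than 0.17 on the log2 scale.

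The active sites of the beta ring belong to *Psmb5*, the chymotrypsin-like subunit, *Psmb6*, the caspase-like subunit, and *Psmb7*, the trypsin-like subunit. *Psmb5* was at 260.5 TPM in siCtrl against 295 TPM in si*Vgll3*, an M of 0.18 [0.15, 0.21]. *Psmb7* was at 337 TPM and 366 TPM, an M of 0.12 [0.09, 0.15]. *Psmb6* was at 309 TPM and 306 TPM, and its interval of −0.04 to 0.01 held 0. The catalytic genes thus sat at or a little above their siCtrl level. Of the beta subunits without an active site, *Psmb4* had the lowest M, −0.13 [−0.16, −0.11], with 377 TPM in siCtrl against 343 TPM in si*Vgll3*, and *Psmb2* was next at −0.11. *Psmb1*, at 474 TPM and 472 TPM, and *Psmb3*, at 340.5 TPM and 351 TPM, had M of −0.01 and 0.04. Summed over the beta ring, the levels were 2449 TPM and 2458 TPM.

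In the 19S base, the ring of 6 ATPases that pulls substrates into the core had a median M of −0.03. *Psmc6* was highest, at 219.9 TPM in siCtrl against 239 TPM in si*Vgll3*, an M of 0.12 [0.10, 0.15]. *Psmc5* was lowest, at 235 TPM and 213 TPM, an M of −0.14 [−0.17, −0.11], which is also the lowest M of the 31 subunits. *Psmc1*, *Psmc2*, *Psmc3* and *Psmc4* lay between them, with M from −0.05 to 0.08. *Psmd1* and *Psmd2* are the scaffolds onto which ubiquitin-binding proteins dock. Their levels were 191 TPM and 282 TPM in siCtrl and 196 TPM and 286 TPM in si*Vgll3*, with M of 0.04 and 0.02. *Psmd4*, the ubiquitin receptor beside them, was at 178 TPM and 163 TPM, an M of −0.12 [−0.16, −0.09].

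The lid had a median M of 0.01 over 8 genes, 5 of them above 0. *Psmd14*, the metalloprotease that cuts ubiquitin off the substrate, was at 192.8 TPM in siCtrl against 192.9 TPM in si*Vgll3*, the smallest difference of all subunits. *Psmd8* had the highest M of the 31 subunits, 0.23 [0.20, 0.25], and was the most abundant lid gene at 357 TPM and 418 TPM. *Psmd13* was at 178 TPM and 198 TPM, an M of 0.15. At the other end of the lid were *Psmd12*, at 130.3 TPM and 120.1 TPM with an M of −0.12 [−0.15, −0.08], and *Psmd3*, at 177 TPM and 165 TPM with an M of −0.10. *Psmd11* at 0.11, *Psmd7* at 0.02 and *Psmd6* at −0.06 made up the rest. Over the 31 subunits of both particles M had an SD of 0.10 across genes, which are not replicates, and every one lay within 0.25 of 0.

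**Figure D2:**
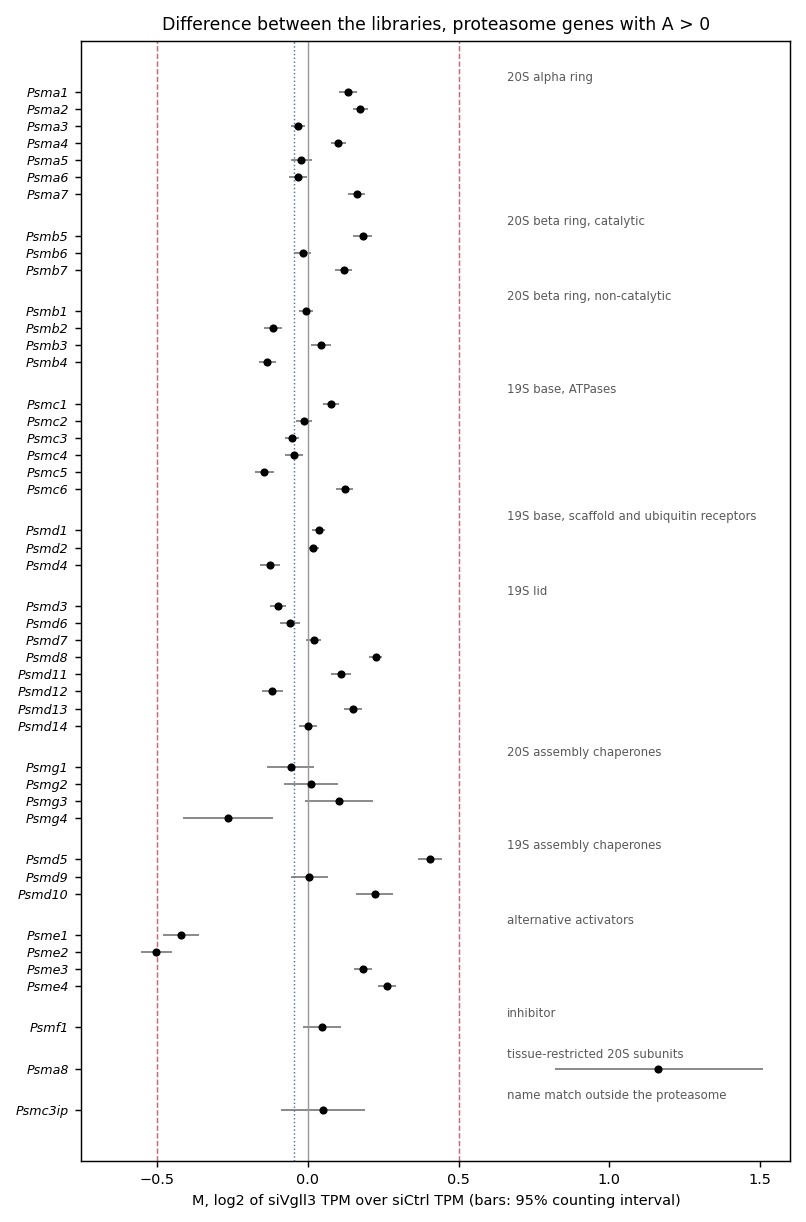
M of the 45 proteasome genes with A > 0, grouped by role; bars are 95% counting intervals, dashed lines the thresholds of −0.5 and 0.5, and the dotted line the median of all genes, −0.05. All 20S and 19S subunits lie between −0.14 and 0.23, while *Psme1*, *Psme2*, *Psmd5* and *Psma8* lie farthest from 0.

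The 7 assembly chaperones among the members, which hold partly built particles together and leave once these are complete, were expressed well below the subunits. *Psmd5*, a chaperone of the 19S base, had the highest M of the 7 chaperones. Its reads numbered 8661 and 10618, and its level was 66.4 TPM against 88.0 TPM, an M of 0.41 [0.36, 0.45]. *Psmd10*, also called gankyrin, another base chaperone, was at 43.2 TPM and 50.4 TPM, an M of 0.22 [0.16, 0.28]. *Psmd9*, the last base chaperone among the members, was at 27.7 TPM and 27.8 TPM. These base chaperones were thus at or above their siCtrl level, *Psmd5* at 132% of it, and none passed the threshold of 0.5.

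The chaperones of the core particle had M from −0.26 to 0.10. *Psmg1* and *Psmg2*, which act as a pair on the alpha ring, were at 42.6 TPM and 31.4 TPM in siCtrl and at 40.9 TPM and 31.7 TPM in si*Vgll3*, and both intervals held 0. *Psmg3* and *Psmg4* form another such pair. *Psmg3* was at 24.5 TPM and 26.4 TPM, an M of 0.10 [−0.01, 0.22], and *Psmg4* at 25.1 TPM and 20.9 TPM, an M of −0.26 [−0.41, −0.11]. The intervals of these partners did not overlap, although *Psmg4* rests on only 842 and 652 reads. *Pomp*, the maturation factor of the beta ring, falls outside the name pattern and was at 295 TPM and 307 TPM, an M of 0.06 [0.02, 0.09].

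The caps that replace the 19S particle had M on both sides of 0. *Psme1* and *Psme2* encode the alpha and beta subunits of PA28, the cap that interferon induces and that favours antigen processing. They lie 5913 bases apart on chromosome 14, *Psme1* (NCBI gene 19186) at chr14:55578494-55581527 and *Psme2* (NCBI gene 19188) at chr14:55587440-55591101 of mm10. *Psme1* had 5856 reads in siCtrl against 4051 in si*Vgll3*, at 93.9 TPM and 70.2 TPM, an M of −0.42 [−0.48, −0.36]. *Psme2* had 7781 and 5089 reads, or 136 TPM and 96.1 TPM, an M of −0.502 [−0.55, −0.45]. The siCtrl level was thus left to 74.8% for *Psme1* and 70.6% for *Psme2*. The call of *Psme2* as lower does not hold under another scaling, since its M lay between −0.46 and −0.45 with the counts scaled by library totals, TMM factors or size factors and with M centred on all genes. The ratio of *Psme1* to *Psme2* was 0.690 in siCtrl and 0.730 in si*Vgll3*.

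*Psme3* and *Psme4* differed the other way. *Psme3*, the nuclear PA28 gamma cap, which interferon is not known to induce, was at 110.5 TPM in siCtrl against 126 TPM in si*Vgll3*, an M of 0.18 [0.15, 0.21]. *Psme4*, which encodes the cap PA200, was at 42.4 TPM and 50.9 TPM, an M of 0.26 [0.23, 0.29]. *Psme2* was thus 1.23 times *Psme3* in siCtrl and 0.765 times in si*Vgll3*. *Psme2b*, a near copy of *Psme2* on another chromosome, had 34 reads in siCtrl against 60 in si*Vgll3*, with A below 0, and reads of the 2 genes may not be told apart in counting. *Psmf1*, the PI31 protein that inhibits the core in vitro, was at 18.7 TPM and 19.3 TPM, an M of 0.05 [−0.01, 0.11].

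Promoter letters were read around the start sites of 39 of the 47 genes, from RefSeq on GRCm38.p6 and from 250 bases before to 50 bases after the start. The letters GAAA, 2 bases of any kind and GAAA again, on either strand, are the core of the interferon-stimulated response element (ISRE). They are in the window of 5 of them (12.8%) and of 3.99% of the 27025 genes with such a window. They are shown because *Psme1* is among these 5 genes. Capitals mark the ISRE letters, and each stretch is written 5′ to 3′ on the strand of its gene.
*Psme1*, chr14:55578493-55578522, plus strand: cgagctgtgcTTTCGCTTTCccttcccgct
*Psmg4*, chr13:34162969-34162998, plus strand: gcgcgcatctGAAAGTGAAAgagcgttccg
*Psmd4*, chr3:95042675-95042704, minus strand: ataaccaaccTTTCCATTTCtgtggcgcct
*Psmd9*, chr5:123228021-123228050, plus strand: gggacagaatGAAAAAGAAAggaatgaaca
*Psmb3*, chr11:97703261-97703290, plus strand: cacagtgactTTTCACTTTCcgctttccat

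The M of these genes was −0.42 for *Psme1*, −0.26 for *Psmg4*, −0.12 for *Psmd4*, 0.01 for *Psmd9* and 0.04 for *Psmb3*, so the letters occur in genes on both sides of 0. The letters start 10 bases after the start site in *Psme1* and 16 bases after it in *Psmg4*. *Psme2*, next to *Psme1* in the genome and in M, does not hold these letters in its windows. The letters TTCNNNGAA, the core of the interferon-gamma activated site, are in the window of *Psmd2* and *Psmg1* (5.13% of the 39 genes and 9.55% of all genes). Such matches describe the sequence and do not show binding.

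The immunoproteasome subunits, kept apart from the genes above, take the place of the catalytic subunits in newly built cores when cells meet interferon. All of them were lower in si*Vgll3*. *Psmb8*, which replaces *Psmb5*, had 1150 reads in siCtrl against 584 in si*Vgll3*, at 14.7 TPM and 8.07 TPM, an M of −0.87 [−1.01, −0.72]. *Psmb9*, which replaces *Psmb6*, had 123 and 29 reads, or 2.38 TPM and 0.588 TPM, an M of −2.02 [−2.66, −1.42]. *Psmb10*, which replaces *Psmb7*, was at 35.7 TPM and 24.6 TPM, an M of −0.54 [−0.62, −0.45]. Like that of *Psme2*, its call as lower does not hold under another scaling. Each was scarce beside the subunit it replaces. *Psmb8* was at 5.65% of *Psmb5* in siCtrl and 2.73% in si*Vgll3*, *Psmb9* at 0.770% and 0.192% of *Psmb6*, and *Psmb10* at 10.6% and 6.72% of *Psmb7*. Against the summed 20S subunits, *Psme1* and *Psme2* together were at 5.20% and 3.65%. Leukocytes are rich in these subunits, and the 9 leukocyte markers summed to 15.0 TPM in siCtrl against 8.46 TPM in si*Vgll3*, with M above 0 for 2 of the 4 at A > 0 and below 0 for the other 2. Most of this sum in siCtrl was *Lyz2*, at 10.9 TPM against 3.13 TPM in si*Vgll3*, while *Cd14* and *Csf1r* had M of 0.62 and 0.50. The part of leukocytes in the lower immunoproteasome genes was not tested.

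**Figure D3:**
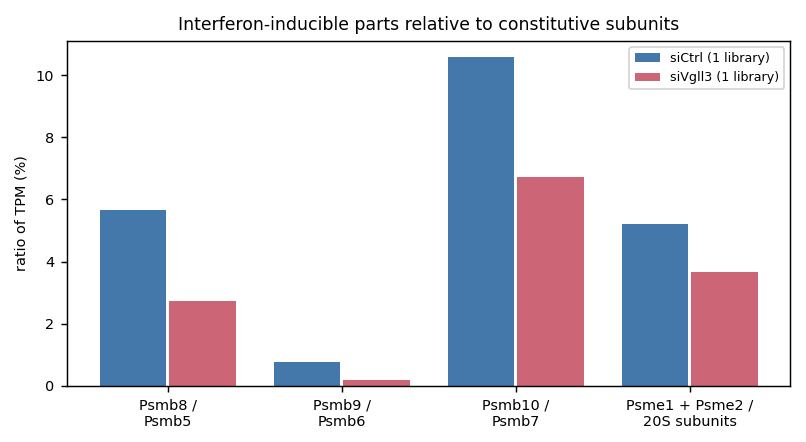
Ratio of TPM, in percent, of each immunoproteasome subunit to the constitutive subunit it replaces, and of *Psme1* and *Psme2* together to the 14 subunits of the 20S particle; blue bars are the siCtrl library and red bars the si*Vgll3* library. Every ratio is lower in si*Vgll3*, with the largest, *Psmb10* to *Psmb7*, at 10.6% in siCtrl and 6.72% in si*Vgll3*.

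Among 9 genes that carry the interferon signal to these subunits, 8 had A > 0 and 3 of them were called lower, among them *Stat2* at an M of −1.60 and *Irf9* at −1.59. Their list had a median M of −0.35, and only the receptor gene *Ifngr2* had an M above 0, at 0.27. *Irf1*, a direct activator of immunoproteasome genes, was at 24.1 TPM in siCtrl against 20.1 TPM in si*Vgll3*, an M of −0.26 [−0.34, −0.19]. The kinase gene *Jak1* was the most abundant of the list, at 141 TPM and 118 TPM. *Nlrc5*, the activator of MHC class I genes, had 103 reads in siCtrl against 3 in si*Vgll3*.

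Besides *Psme2b*, the members *Psma8* and *Psmb11* stood at the low end of expression. *Psma8*, an alpha subunit of the testis, had 106 reads in siCtrl against 218 in si*Vgll3*, at 0.972 TPM and 2.17 TPM, an M of 1.16 [0.82, 1.51]. It was the only proteasome gene called higher, and its M lay between 1.19 and 1.21 under the other scalings. Its level in si*Vgll3* was nonetheless far below that of *Psma7*, the subunit it can replace, at 370.2 TPM. *Psmb11*, the beta subunit of the thymus, had 0 reads in siCtrl against 3 in si*Vgll3*, within the 3 reads that a count of 0 allows, and has no TPM. *Psmc3ip*, a recombination factor that shares only the name, was at an M of 0.05 [−0.09, 0.19].

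Genes that work with the proteasome but lack its name were read from lists. The first list holds 6 genes of the table, the subunit *Sem1* (listed as *Shfm1*), the receptor *Adrm1*, *Pomp*, the deubiquitinases *Usp14* and *Uchl5*, and the scaffold *Ecpas* (listed as *AI314180*). Its median M was 0.03, with 0 genes called either way. *Shfm1*, the smallest lid protein, was the most abundant at 396 TPM in siCtrl against 453 TPM in si*Vgll3*, an M of 0.19 [0.16, 0.23]. *AI314180* was the lowest, at −0.24. The 6 shuttle genes, which carry ubiquitylated proteins to the particle, had a median of 0.10 with 0 called either way, and *Rad23b* was the most abundant at 192 TPM and 212 TPM. The 6 genes for ubiquitin and for its activating enzymes had a median of 0.09, again with 0 called either way.

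The transcription factor NRF1, encoded by *Nfe2l1*, is known to raise proteasome genes together when the particle is impaired. *Nfe2l1* (NCBI gene 18023, chr11:96817414-96829968 of mm10) had 43376 reads in siCtrl against 26977 in si*Vgll3*, at 149 TPM and 100.1 TPM, an M of −0.58 [−0.60, −0.56]. It was the only gene called lower among the 10 genes of its pathway, and its small partner *Maff*, at 38.9 TPM and 56.4 TPM with an M of 0.53 [0.48, 0.59], the only one called higher. The other partners *Mafk* and *Mafg* were at 0.41 and 0.23. *Ngly1*, the glycanase that trims NRF1, was at −0.29, the protease *Ddi2* that cleaves it at 0.04, and *Vcp*, the ATPase that extracts it from the membrane and the most abundant gene of the list, at −0.02. *Nfe2l2*, the related factor NRF2, was at 168 TPM and 182 TPM, an M of 0.12. The list had a median M of 0.10, and the 31 subunits, as given above, stayed within 0.25 of 0.

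The letters TGACNNNGC on either strand, a core of the antioxidant response element that NRF1 and NRF2 share, are in the promoter window of 6 of the 39 genes (15.4%) and of 14.0% of all genes. They are shown here, in capitals, for the catalytic genes and for the cap with the highest M.
*Psmb5*, chr14:54618023-54618052, minus strand: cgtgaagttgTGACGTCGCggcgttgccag
*Psmb6*, chr11:70525338-70525367, plus strand: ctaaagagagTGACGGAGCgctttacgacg
*Psme4*, chr11:30771758-30771787, plus strand: cgctgcggctGCAGCGTCAccagaagagcc

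Their M was 0.18 for *Psmb5*, −0.02 for *Psmb6* and 0.26 for *Psme4*. The other genes with the letters were *Psmc6* at 0.12, *Psmd12* at −0.12 and *Psmd9* at 0.01. The 6 genes thus fell on both sides of 0 as well, and the share of windows with these letters was close to that of all genes.

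Other large complexes of the cytosol were set beside the proteasome particles, whose M ran from −0.14 to 0.23. The COP9 signalosome, built like the 19S lid, had a median M of 0.01 over 9 genes, from −0.18 for *Cops7a* to 0.13 for *Cops8*. The translation factor eIF3, also built from subunits of these kinds, had a median of 0.08 over the 13 of its 14 genes with A > 0, from −0.13 for *Eif3c* to 0.24 for *Eif3j2*. All genes of these 2 complexes with A > 0 lay within 0.25 of 0, as did those of the CCT chaperonin. The CCT chaperonin, a ring that folds actin and tubulin, had M above 0 for all 8 genes and a median of 0.17, with *Cct2* highest at 501 TPM in siCtrl against 595 TPM in si*Vgll3*. The 20S and 19S subunits had medians of 0.02 and 0.00044. No gene of these complexes was called higher or lower.

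**Figure D4:**
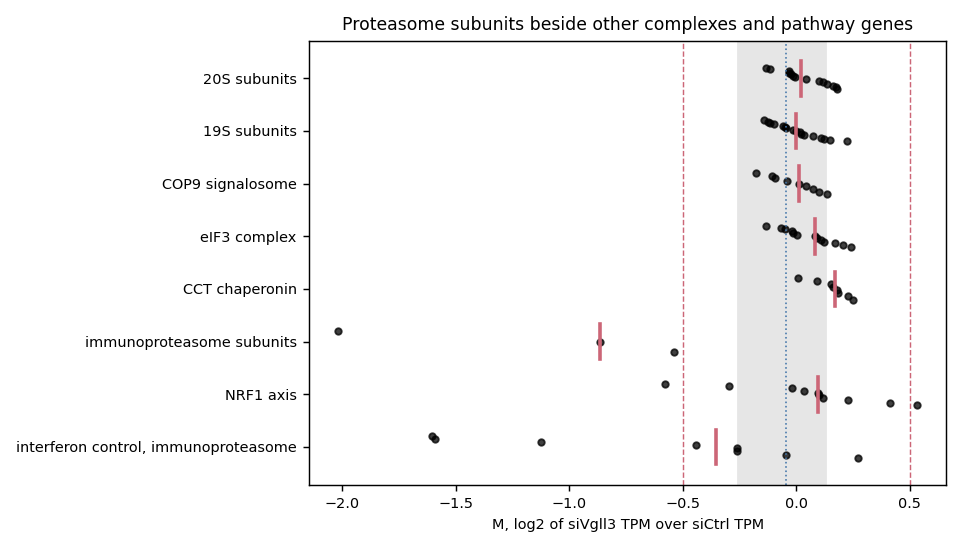
M of each gene with A > 0 (dots, spread vertically only for legibility) in the proteasome particles, other complexes and pathway lists; red bars are medians, dashed lines the thresholds of −0.5 and 0.5, the dotted line the median of all genes and the grey band their middle 50%, from −0.26 to 0.13. The complexes cluster around 0, while the immunoproteasome subunits and their interferon regulators reach M of −2.02 and −1.60.

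The members lie on 16 chromosomes, and 14 of the 47 overlap another annotated gene, *Psma3*, *Psmb5*, *Psmd10*, *Psme1* and *Psme4* among them, so that some of their reads may come from the other gene. Many subunits also have processed pseudogenes elsewhere in the genome, whose reads the counting may share. The median over the 45 genes of the reads in the library where each was lower was 17035, so counting error was small for most subunits, while the spread between cultures is unknown.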

How the data were processed

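Poly(A) RNA of 1 siCtrl and 1 si*Vgll3* culture was sequenced from TruSeq Stranded mRNA libraries on an Illumina NovaSeq. The authors used Trimmomatic for trimming, HISAT2 for mapping to mm10 and StringTie for known genes. Versions, annotation and the strand setting of the counting are not given in the sources used here. The authors deposited raw read counts per gene, without normalization, and TPM per gene in 1 table per library. From the TPM, M and A were computed with nothing added, with the thresholds M < −0.5 and A > 0 of the study and their mirror image. Counting intervals are 95% Clopper-Pearson intervals (scipy 1.17.1). They were tested only on simulated independent Poisson counts, the model that they assume, which cannot show how they perform on these libraries. No model with replicates could be fitted. TMM factors (edgeR 4.0.16) and size factors (DESeq2 1.42.0) served for rescaling only, keeping the filter on A. The alternatives also covered centring, 1 TPM or 0.1 TPM added, A > 2, no filter, and members without *Psmc3ip*.

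The members and lists were chosen with earlier results of these data known. The text names every member, and from the other lists each gene past 0.5, the most abundant gene and all immunoproteasome subunits. Further list genes, the ratios, the window of 0.25 and the promoter motifs were chosen after values were seen. Positions and promoters came from RefSeq for GRCm38.p6, the assembly called mm10, and *Psmb7*, *Psmb1*, *Psmb2*, *Psmc3*, *Psmd3*, *Psmd7*, *Psmg2* and *Psma8* have no promoter entry there. Of 4 motifs searched, CCAAT was in 35.9% of the 39 genes and 41.1% of all.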

Additional observations from a re-analysis of the deposited data

How the results depend on the processing

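No paired analysis was possible because only 1 library represents each condition. The median M of the proteasome genes, 0.02 from TPM, was 0.0697 with CPM, 0.0618 with TMM scaling, 0.0589 with the size factors of DESeq2 and 0.0637 after centring M on all genes. The log2 ratio of the summed levels, 0.03, was 0.0792 with CPM, 0.0713 with TMM scaling and 0.0684 with size factors. These rescalings add nearly the same amount to every gene. The 1 gene called lower, *Psme2*, became 0 genes with CPM, TMM scaling, size factors, centred M or 1 TPM added, and when the counting interval was required to lie wholly below −0.5. The 1 gene called higher, *Psma8*, became 0 with A > 2, which leaves it out, and 2 without a filter on A, which adds *Psme2b*. Genes with M above 0 numbered 25 to 33 under the other alternatives and 19 when the whole interval had to lie above 0, against 26. Of 204 values of single genes and lists under the 4 rescalings, 148 moved by more than counting error. Of the 45 genes, 7 just below 0 had another sign under at least 1 rescaling, and 6 of them, *Psma3*, *Psma5*, *Psma6*, *Psmb1*, *Psmb6* and *Psmc2*, under all 4, while *Psmc4* did with CPM only. Low read numbers limit *Psma8*, *Psmb9*, *Psme2b* and *Psmb11*. With 1 culture per condition, the siRNA and any other difference between the cultures cannot be told apart.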
